A study of Rattus norvegicus with 16 samples.

Results

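The transcripts described are those of 4 genes of the hormonal stress response, Nr3c1 (ENSRNOG00000014096), Nr3c2 (ENSRNOG00000034007), Crh (ENSRNOG00000012703) and Crhr1 (ENSRNOG00000004900), out of 32883 genes counted. They were chosen for their role, by gene identifier, and each identifier lay on the chromosome given for it. The tissue was the nucleus basalis of Meynert of Long Evans rats aged at least 70 days, in a study of how stress acts on attention and its cholinergic system. All 16 libraries came from ChAT::Cre rats, so stressed and control animals alike carry a Cre recombinase tied to the gene for choline acetyltransferase. There were 4 libraries each of stressed females, control females, stressed males and control males. What the stress consisted of and when tissue was taken after it are not given in the sources used here. The labels do not say that each library is a separate animal, so the spread between libraries may be in part technical.

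Corticosteroids released by the adrenal gland act in the brain through a pair of nuclear receptors that bind the same hormone. The mineralocorticoid receptor, made from Nr3c2, binds corticosterone tightly and is largely occupied at rest, whereas the glucocorticoid receptor, made from Nr3c1, binds it less tightly and fills when hormone rises under stress. Crh encodes corticotropin-releasing hormone, the peptide with which the hypothalamus starts this hormonal cascade and which neurons elsewhere in the forebrain also use as a transmitter. Crhr1 encodes the G protein-coupled receptor through which that peptide mainly acts.

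On the build Rnor_6.0 the gene model of Nr3c1 lies on chromosome 18 at 31728373 to 31749647 on the minus strand, with 7 exons and 5078 exonic bases. Its exon at the 3′ end holds 4082 of these bases, and the other 6 exons are 117 to 276 bases long. The long exon that encodes most of the amino-terminal part of the glucocorticoid receptor in mammals is therefore not part of this model. Nr3c2 lies on chromosome 19 at 34448289 to 34752695 on the minus strand, with 6 exons that sum to 2631 bases. Crhr1 lies on chromosome 10 at 92191718 to 92232645 on the plus strand, with 13 exons of at most 154 bases that sum to 1248 bases. Crh lies on chromosome 2 at 104459999 to 104461863 on the minus strand, with 2 exons and 1196 exonic bases. No exon of another annotated gene overlapped an exon of any of the 4.

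**Figure D1:**
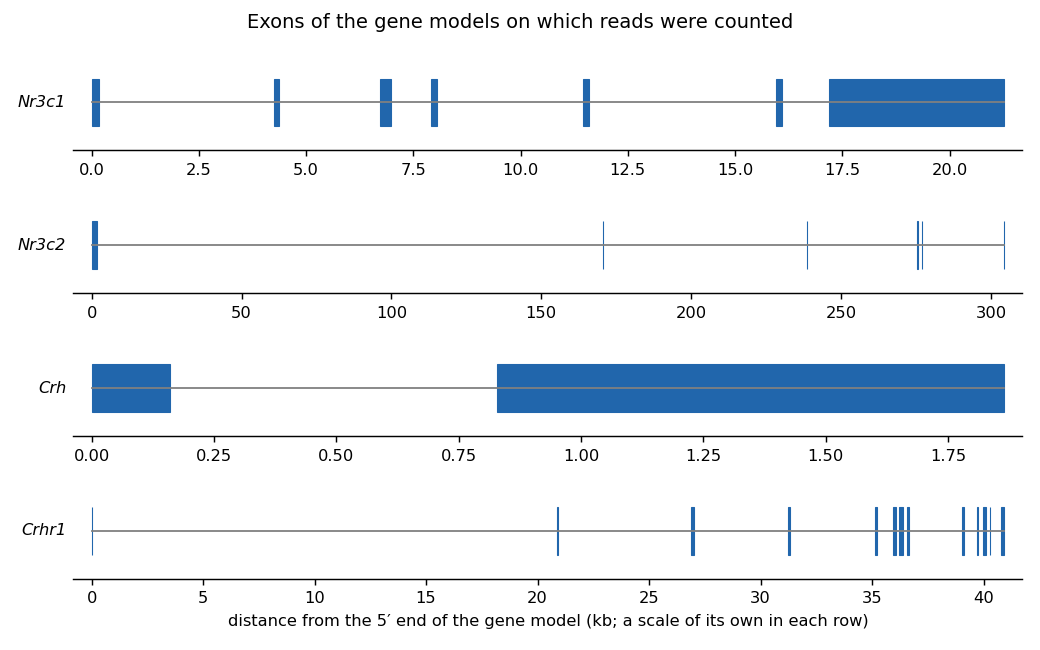
Exons (blue boxes) of the 4 gene models against distance from the 5′ end of the model in kb, each row on a scale of its own. Most of the Nr3c1 model is its 3′ exon of 4082 bases, while the 13 exons of Crhr1 are at most 154 bases long.

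Libraries differed in how they were counted, which touches each gene below. The 13 libraries with the layout of HTSeq held 22.7 to 38.2 M counts, of which 5.86 to 10.2 M were in nuclear genes. Mitochondrial genes took 64.2% to 82.5% of the counts over all 16 libraries. Female control 4, male stress 1 and male control 4 were counted with featureCounts and held 12.9 to 22.6 M nuclear counts. In those 3 the mates of a read pair were counted separately, so their counts are not independent fragments. Stressed females had no featureCounts library. No markers of cholinergic neurons or other cell types were analysed here, because the identifiers in the files could not be paired with gene symbols (0 of 32883 matched the reference table of 47357 genes). For the same reason the prepared lists of receptor chaperones, coregulators, steroid enzymes, glucocorticoid-induced genes and members of the Crh family were not analysed here.

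Levels are given in CPM, counts per M counts after TMM scaling, and, to compare genes, in CPM per kb of exonic length. Averaged over the 16 libraries, Nr3c1 had the highest level of the 4 at 8.91 CPM per kb, above 84.4% of the 14241 genes tested. Nr3c2 followed at 4.12 CPM per kb, above 68.2% of those genes. Crhr1 had 0.464 CPM per kb, above 18.7%, and Crh had 0.0754 CPM per kb, above 1.23%. The median of the genes tested was 2.02 CPM per kb. Nr3c1 thus stood 2.16 times as high as Nr3c2 per kb and 19.2 times as high as Crhr1. The gene models are not alike, with an exon at the 3′ end of 4082 bases in Nr3c1, 130 in Nr3c2 and 141 in Crhr1. The part of this in the differences of level per kb was not tested. The ranges over single libraries did not overlap between Nr3c1 (7.86 to 10.8 CPM per kb), Nr3c2 (2.97 to 5.11) and Crhr1 (0.215 to 1.04). Crh ran from 0 to 0.260 CPM per kb, into the range of Crhr1.

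Of the 4 genes, 3 passed the filter on low counts and were tested, and Crh did not. In 18 tests by edgeR (3 genes in 6 comparisons) none passed an adjusted p of 0.05, and 1, Crhr1 with stress in females, had an unadjusted p under 0.05, as did 6.48% of all genes in that comparison. DESeq2 and limma voom also called 0. Over all 14241 genes, edgeR called 0.337% for stress averaged across both sexes, 0.0632% in females, 0.119% in males and 0% for the difference between the sexes (571 genes at an unadjusted p under 0.05, with 1 call by DESeq2 and 0 by limma voom). Between the sexes it called 0.112% among controls and 0.0913% among stressed rats. In the HTSeq libraries alone the shares were 0.201% with stress on average, 0.0972% in females, 0.0347% in males, 0.0694% between control sexes and 0.0972% between stressed sexes. In those libraries Crhr1 had an unadjusted edgeR p of 0.384 with stress in females and 0.00994 between stressed sexes. Neither passed after adjustment, and in the second comparison 6.67% of all genes had an unadjusted p under 0.05. With so few genes called anywhere, 0 of 3 is near the background.

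**Figure D2:**
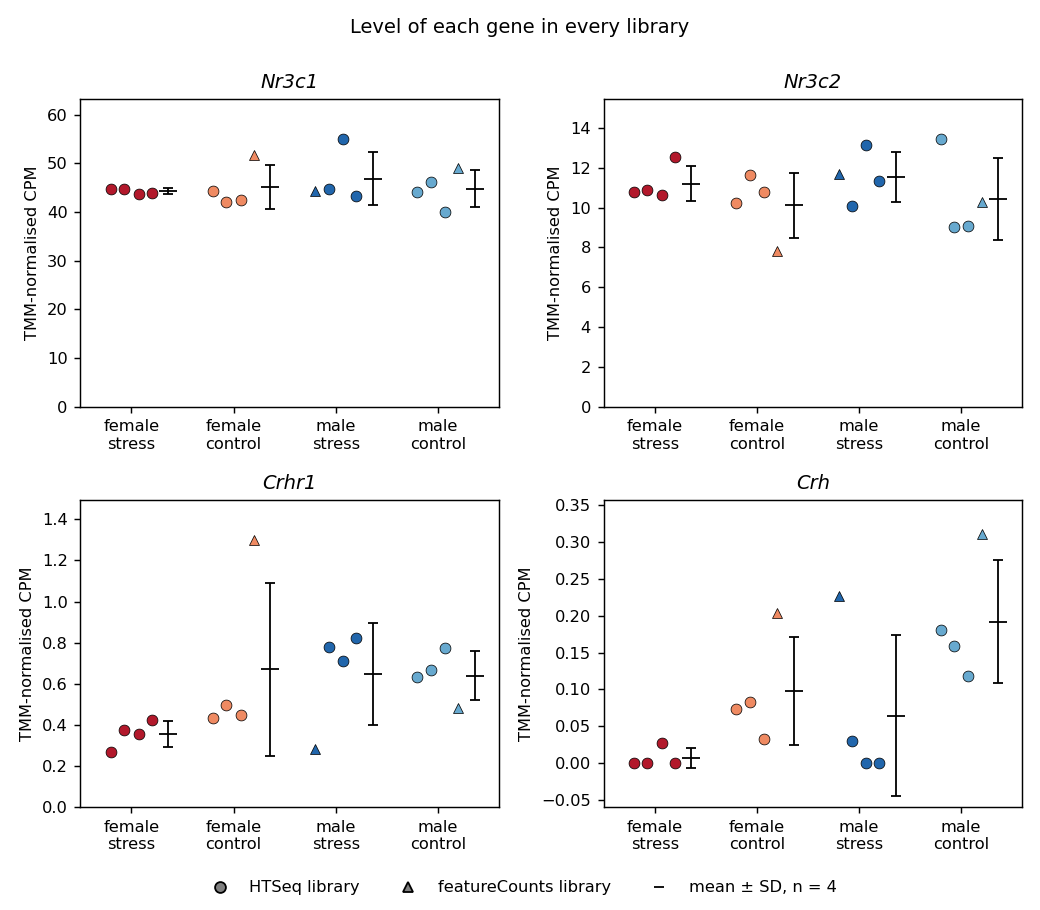
TMM-normalised CPM (linear axes) of each gene in every library by group, with circles for HTSeq and triangles for featureCounts libraries and the mean ± SD of 4 libraries beside them. Nr3c1 and Nr3c2 overlap between all groups, Crhr1 is highest in female control 4 at 1.30 CPM, and Crh is at 0 in 5 stressed libraries.

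The glucocorticoid receptor transcript Nr3c1 varied little. It measured 44.8, 44.7, 43.7 and 43.8 CPM in stressed females and 44.2, 42.1, 42.4 and 51.7 CPM in control females. In males it measured 44.2, 44.7, 54.9 and 43.4 CPM under stress and 44.1, 46.1, 39.9 and 49.0 CPM in controls. Stressed and control libraries overlapped in both sexes, with female control 4 and male stress 3 the highest of their groups. Group means were 44.2 ± 0.58 CPM (SD, n = 4) in stressed females, 45.1 ± 4.5 in control females, 46.8 ± 5.4 in stressed males and 44.8 ± 3.8 in control males. The log2 fold change with stress on average over the sexes was 0.017 (SE 0.072, 95% interval -0.13 to 0.17, adjusted p = 0.968 by edgeR), an interval of 0.913-fold to 1.12-fold. In females it was -0.029 (interval -0.24 to 0.18) and in males 0.064 (interval -0.15 to 0.27), and the difference between them was -0.093 (interval -0.39 to 0.20, adjusted p = 1.0). Changes larger than these bounds lie outside the intervals, while smaller ones could not be told from 0. The sign turned without female control 4 in females (0.044), without male stress 3 in males (-0.023), and on average without female control 2, male stress 3 or male control 3 (down to -0.026).

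Females and males did not differ in Nr3c1 beyond the spread between libraries either. The log2 fold change, female over male, was 0.012 (SE 0.10, interval -0.20 to 0.22) in controls and -0.081 (SE 0.10, interval -0.29 to 0.13) in stressed rats. Without male stress 3 the second was 0.0049, and the first was -0.059 without female control 4 and -0.040 without male control 3. Over all 16 libraries the coefficient of variation of Nr3c1 was 8.25%, against 2.5% from counting alone, so most of its small spread was not sampling of reads.

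The mineralocorticoid receptor transcript Nr3c2 measured 10.8, 10.9, 10.6 and 12.5 CPM in stressed females and 10.2, 11.6, 10.8 and 7.82 CPM in control females. In males it measured 11.7, 10.1, 13.1 and 11.3 CPM under stress and 13.4, 9.03, 9.06 and 10.3 CPM in controls. The groups overlapped in both sexes. Female control 4, which had the highest Nr3c1 of its group, had the lowest Nr3c2 of all 16 libraries. Group means were 11.2 ± 0.89 CPM (SD, n = 4) in stressed and 10.1 ± 1.6 in control females, and 11.5 ± 1.3 in stressed and 10.4 ± 2.1 in control males. The log2 fold change with stress was 0.16 (SE 0.14, interval -0.14 to 0.45) in females, 0.15 (SE 0.14, interval -0.15 to 0.44) in males and 0.15 (SE 0.10, interval -0.058 to 0.36, adjusted p = 0.649 by edgeR) on average. These were positive in both sexes and none passed the test. Without female control 4 the value in females was 0.042 and the average 0.095, and without male control 1 the value in males was 0.29.

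The stress effect on Nr3c2 differed between the sexes by 0.010 (SE 0.20, interval -0.41 to 0.43) on the log2 scale. Its sign turned without any of 4 single libraries, female stress 4, female control 4, male stress 2 or male control 1, with values down to -0.13. Female over male, Nr3c2 had a log2 fold change of -0.054 (SE 0.14, interval -0.35 to 0.24) in controls and -0.044 (SE 0.14, interval -0.34 to 0.25) in stressed rats. Without female control 4 or male control 1 the value in controls was 0.063 or 0.088, and without male stress 3 the value in stressed rats was 0.023.

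**Figure D3:**
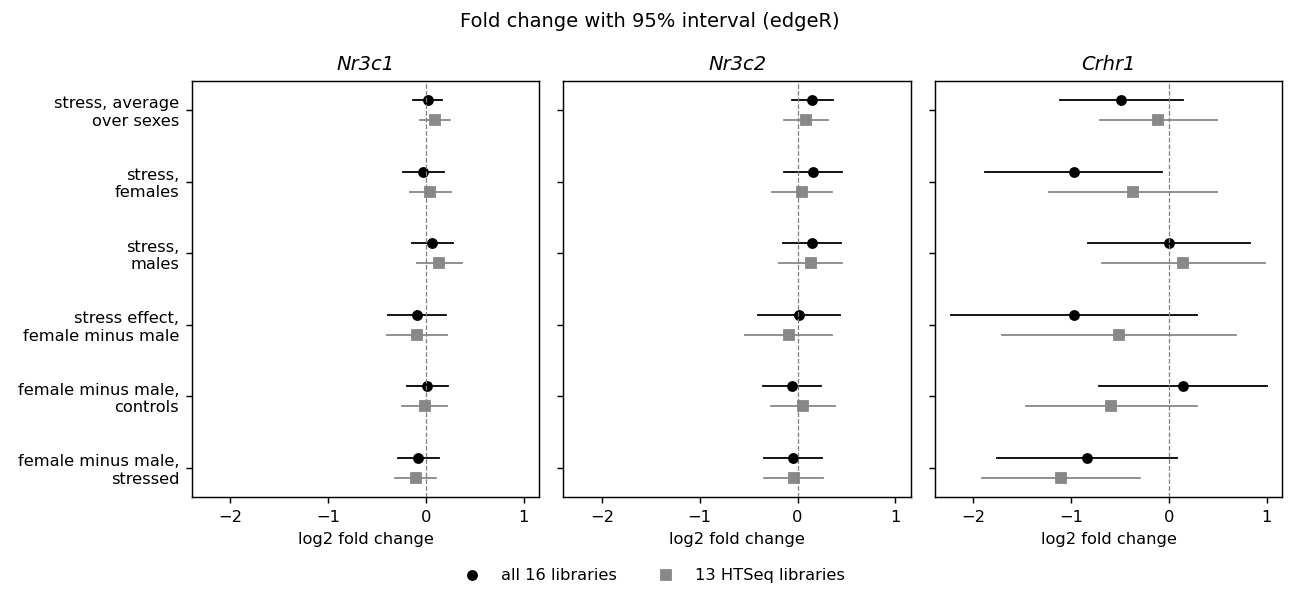
Log2 fold change (point) and 95% interval (line) of Nr3c1, Nr3c2 and Crhr1 in the 6 comparisons, from edgeR on all 16 libraries (black circles) and on the 13 HTSeq libraries (grey squares). Intervals of Nr3c1 are the narrowest, those of Crhr1 the widest, and none of these values passed an adjusted p of 0.05.

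Because both receptors bind the same hormone, their balance is commonly read as a ratio, which within a library does not depend on its depth. Its absolute value also depends on which exons the gene models hold. The ratio of Nr3c1 to Nr3c2 counts per exonic base was 2.14, 2.13, 2.13 and 1.81 in stressed females and 2.23, 1.87, 2.03 and 3.42 in control females. In males it was 1.96, 2.29, 2.17 and 1.98 under stress and 1.70, 2.64, 2.28 and 2.47 in controls. Female control 4 lay above the other 15 libraries, and the groups overlapped in every comparison. On the log2 scale the ratio differed with stress by -0.18 in females (two-sided exact permutation p = 0.543, adjusted p = 0.876 over 4 comparisons) and by -0.097 in males (exact p = 0.629). Without male control 1 the difference in males was -0.23 (exact p = 0.0857), and without male control 2 it was -0.018. Females differed from males by 0.051 in controls (exact p = 0.886) and by -0.034 in stressed rats (exact p = 0.657). The smallest p that 4 against 4 libraries allow is 0.0286. In the HTSeq libraries alone the difference in females was 0.0041 (exact p = 0.943), with means of 2.05 ± 0.16 (SD, n = 4) in stressed and 2.05 ± 0.18 (SD, n = 3) in control females. The difference in females thus rested on female control 4. Among controls the sign turned without female control 4 (-0.14) or male control 1 (-0.082), and among stressed rats without female stress 4 (0.025) or male stress 2 (0.0092).

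**Figure D4:**
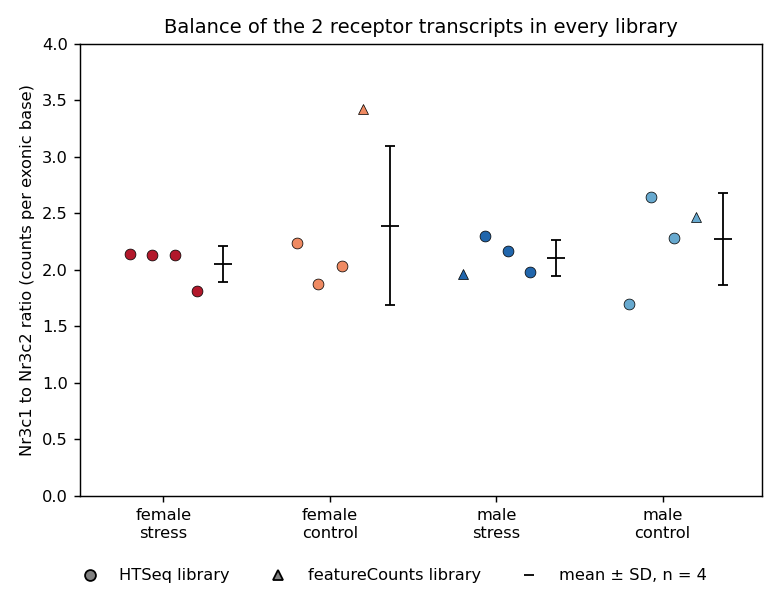
Ratio of Nr3c1 to Nr3c2 counts per exonic base (linear axis) in every library by group, with circles for HTSeq and triangles for featureCounts libraries and the mean ± SD of 4 libraries. All libraries lie between 1.70 and 2.64 except female control 4 at 3.42.

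Crhr1, the receptor for corticotropin-releasing hormone, was counted thinly, with 9 to 33 counts in the HTSeq libraries. It measured 0.269, 0.374, 0.357 and 0.423 CPM in stressed females and 0.436, 0.498, 0.447 and 1.30 CPM in control females. All 4 stressed female libraries lay below all 4 control female libraries, which was the case for 1.08% of 24736 genes with a count. In males it measured 0.284, 0.779, 0.710 and 0.821 CPM under stress and 0.631, 0.667, 0.776 and 0.484 CPM in controls, and these overlapped. Group means were 0.356 ± 0.064 CPM (SD, n = 4) in stressed and 0.670 ± 0.42 in control females, and 0.649 ± 0.25 in stressed and 0.640 ± 0.12 in control males. Female control 4 held 115 Crhr1 counts and male stress 1 held 15, so the featureCounts libraries include both the highest library and 1 of the lowest.

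The log2 fold change of Crhr1 with stress in females was -0.98 (SE 0.44, interval -1.88 to -0.070), with an unadjusted p of 0.0357 and an adjusted p of 0.757 by edgeR. Without female control 4 it was -0.37. In males it was -0.0015 (SE 0.40, interval -0.83 to 0.83), and 0.27 without male stress 1, 0.018 without male control 2 and 0.10 without male control 3. The average over the sexes was -0.49 (SE 0.31, interval -1.12 to 0.14, adjusted p = 0.613) and -0.18 without female control 4. The difference between the sexes was -0.97 (SE 0.61, interval -2.23 to 0.29) and -0.37 without female control 4. The interval in males reached from 0.562-fold to 1.78-fold, so changes within it remain possible.

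In the HTSeq libraries Crhr1 was lower in every female than in every male library, a pattern that was picked out after its values were seen. The 7 female libraries had 0.269 to 0.498 CPM and the 6 male libraries 0.631 to 0.821 CPM. Of the 14241 genes tested, 25 (0.176%) lay lower in females without overlap in these libraries. The featureCounts libraries did not follow it, as female control 4 had 1.30 CPM, male control 4 had 0.484 CPM and male stress 1 had 0.284 CPM. Averaged over stressed and control rats, the log2 fold change of Crhr1, female over male, was -0.85 in the HTSeq libraries (SE 0.29, interval -1.44 to -0.25, adjusted p = 0.675 by edgeR) and -0.35 in all 16 (SE 0.31, interval -0.98 to 0.28, adjusted p = 0.823). The background was 0.118% and 0.14% of genes called. In stressed rats it was -0.83 (SE 0.45, adjusted p = 0.881) over all libraries and -1.10 (SE 0.39, adjusted p = 0.626) in the HTSeq libraries. In controls it was 0.14 (SE 0.42, adjusted p = 0.982), which turned to -0.46 without female control 4 and to -0.59 in the HTSeq libraries. With the counting tool as a covariate the values were -0.82 in stressed rats and 0.12 in controls. Leaving out 1 library gave -0.65 (without female control 4) to -0.27 for the average over stressed and control rats, and -1.10 (without male stress 1) to -0.71 in stressed rats. None of these passed the test.

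The transcript of Crh, which encodes the peptide hormone itself, was near the limit of detection. The HTSeq libraries held 0, 0, 1 and 0 counts in stressed females, 2, 2 and 1 in control females, 1, 0 and 0 in stressed males and 6, 5 and 5 in control males. The featureCounts libraries held 18 in female control 4, 12 in male stress 1 and 18 in male control 4. The 7 stressed HTSeq libraries thus had 2 Crh counts in all and the 6 control HTSeq libraries had 21. After scaling, stressed lay below control libraries without overlap in each sex, and of 24736 genes with a count 2.07% did so in females, 4.77% in males and 0.162% in both. A count of 0 allows up to 0.0852 to 0.123 CPM in the 5 libraries concerned (3 counts), so absence cannot be stated. In the stressed females with a count of 0 this limit was 0.0864 to 0.0906 CPM, above every HTSeq control female (0.0319 to 0.0831 CPM). Female stress 3 and female control 3 each held 1 count and were set apart only by scaling. Over the HTSeq females, 1 count under stress stood against 5 in controls. The 95% interval of their scaled ratio, 0.0025 to 1.08, included no change. Over the HTSeq males, 1 count stood against 16, with an interval of 0.0017 to 0.464. Both sexes together, 2 counts against 21, gave 0.0089 to 0.321, and these 2 intervals did not include no change. Intervals and limits from counts cover counting error only. In bulk tissue fewer cells of a type and less RNA per cell cannot be told apart.

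**Figure D5:**
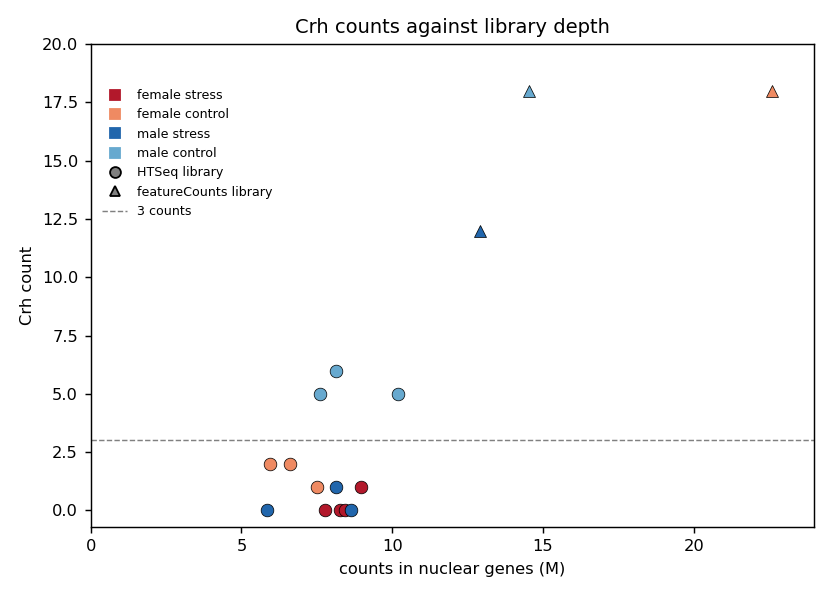
Crh count against counts in nuclear genes (M) in each of the 16 libraries, coloured by group, with circles for HTSeq and triangles for featureCounts libraries and a dashed line at 3 counts. Above the line lie the 4 male controls, female control 4 and male stress 1; the other 10 libraries hold 0 to 2 counts.

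In CPM, Crh had 0.00686 ± 0.014 (SD, n = 4) in stressed and 0.0978 ± 0.074 in control females, and 0.0642 ± 0.11 in stressed and 0.192 ± 0.084 in control males. The difference, stressed minus control, was -0.0909 CPM in females (two-sided exact permutation p = 0.0286, the smallest possible, adjusted p = 0.0714 over 5 comparisons) and -0.128 CPM in males (exact p = 0.114, adjusted p = 0.179). With labels permuted within each sex, a test added after the values were seen, the average difference was -0.109 CPM (exact p = 0.0147, adjusted p = 0.0714). In the HTSeq libraries this average was -0.0990 CPM (exact p = 0.00143, the smallest that 700 relabelings allow, adjusted p = 0.00714). The HTSeq libraries leave out male stress 1, the highest stressed library at 0.227 CPM, as well as female control 4 and male control 4. The adjustment does not cover the choice of this test after the values were seen. No fold is given here as an estimate, since every stressed HTSeq library of either sex held fewer than 3 counts.

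Against all genes, the Crh difference was not called. With no filter on low counts, edgeR gave adjusted p = 0.179 on average, 0.518 in females and 0.787 in males over 25215 genes. Male stress 1 went against the other stressed males, at 0.227 CPM against 0 to 0.0300 CPM. Without it the difference in males was -0.182 CPM (exact p = 0.0286). The 3 featureCounts libraries together had 0.241 CPM of Crh and the HTSeq libraries 0.0546 CPM, and each featureCounts library lay above every HTSeq library. Within the HTSeq libraries the difference with stress was -0.0557 CPM in females (exact permutation p = 0.0286) and -0.142 CPM in males (exact permutation p = 0.1), each the smallest p possible there. Nuclear counts in these libraries were 7.76 to 8.97 M in stressed and 5.96 to 7.49 M in control females, and 5.86 to 8.62 M in stressed and 7.62 to 10.2 M in control males. The 3 featureCounts libraries were the deepest and held the most Crh counts, and the part of depth in the Crh differences was not tested.

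Crh was also compared between the sexes. Among HTSeq controls it had 0.0319 to 0.0831 CPM in females and 0.118 to 0.18 CPM in males, without overlap, a pattern held by 3.74% of genes with a count. The difference, female minus male, was -0.0898 CPM (exact permutation p = 0.1, the smallest that 3 against 3 libraries allow). Over all controls it was -0.0942 CPM (exact p = 0.143), and among all stressed rats -0.0574 CPM (exact p = 0.429). Among the HTSeq stressed rats, which leave out male stress 1, it was -0.0031 CPM (exact permutation p = 0.714). Whether the stress difference itself differs between the sexes was not tested for Crh.

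Genes with a pattern most like each of the 3 tested genes over the 16 libraries were sought by the Pearson correlation of log2 CPM, as a description. Nr3c1 was closest to ENSRNOG00000019387 (chromosome 16, 20426566 to 20430752; r = 0.84), which ran from 1.58 to 3.32 CPM. Nr3c2 was closest to ENSRNOG00000023053 (chromosome 1, 35280701 to 35319182; r = 0.80), and Crhr1 to ENSRNOG00000003019 (chromosome 10, 10690224 to 10725655; r = 0.81). In the 13 HTSeq libraries the same pairs had r = 0.80, 0.70 and 0.85, but another gene was closest to each of the 3. The libraries share depth, counting tool and scaling, and each r is the highest of all genes of at least 1 CPM, so it says little about any pair.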

How the data were processed

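RNA of the nucleus basalis of Meynert was sequenced in 16 libraries. The authors deposited unnormalised counts for each Ensembl gene. The build Rnor_6.0 and the tools STAR (2.5.2a), HTSeq, bedtools, limma and DESeq are named, per the submitters' processing notes. Per the file headers, 3 libraries were counted with featureCounts 1.6.1 and Ensembl release 92, without options for pairs or strand. Lines that name no gene were left out (44.8% to 64.7% of all counts in the HTSeq files, these lines included). Replicates were numbered in accession order. Among 24 pairs of libraries within groups, 0 were identical, and counts differed beyond sampling noise in each (chi-square per degree of freedom at least 7.72).

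Counts were fitted with edgeR 4.0.16 (R 4.3.3) with TMM, filterByExpr (14241 genes left), robust quasi-likelihood, 4 group means, Benjamini-Hochberg over all genes. The 95% intervals use the fit's SE. For single values the tests were exact permutations, two-sided. The receptor ratio added 0.5 to each count. The code was tested on simulated data. Alternatives were DESeq2 1.42.0, limma 3.58.1 (voom), RLE factors, no filter, nuclear genes only, HTSeq libraries only, the counting tool as a covariate, the compared groups alone, and each library left out. The named genes are the 4 members, plus the 1 gene most correlated with each tested one. Members and lists were chosen with earlier results of these data known.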

Additional observations from a re-analysis of the deposited data

Results flagged for a closer look

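Libraries that stood apart from their group of 4 were sought in the CPM of the 4 genes and in the receptor ratio. Of 20 groups 6 had one, while about 1 in 20 would by chance, and the groups share libraries. That rate does not hold for Crh, with its ties at 0, and the ratio is made from Nr3c1 and Nr3c2, so the flags are not independent. Crhr1 was 1.30 CPM in female control 4 against 0.436 to 0.498 CPM in the other control females. That library was counted with featureCounts and also had the highest Nr3c1 and the lowest Nr3c2 of its group. Crh was 0.227 CPM in male stress 1, another featureCounts library, against 0 to 0.0300 CPM in the other stressed males. In stressed females Crh was 0.0274 CPM in female stress 3 and 0 in the others, which is a single count. Nr3c1 was 54.9 CPM in male stress 3 against 43.4 to 44.7 CPM in the other stressed males. Nr3c2 was 12.5 CPM in female stress 4 against 10.6 to 10.9 CPM, and the receptor ratio there was 1.81 against 2.13 to 2.14. In female stress 4, lines that name no gene held 62.0% of all counts, against 44.8% to 47.2% in the other stressed females. The share was also high in female control 2 (62.5%) and male stress 4 (64.7%), which were not flagged. The part of this share in the values of female stress 4 was not tested.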

How the results depend on the processing

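No paired analysis was possible because the groups share no replicate numbers in the labels. No alternative brought Nr3c1, Nr3c2 or Crhr1 past an adjusted p of 0.05 in any comparison. Values below are log2 differences unless a unit is given. In the HTSeq libraries alone, Nr3c1 with stress in females was 0.044, Crhr1 in males 0.15, the sex difference of the Nr3c2 effect -0.091, and females against males in controls -0.016 for Nr3c1, 0.052 for Nr3c2, -0.59 for Crhr1 and -0.090 for the ratio; the ratio in females was 0.0041. With the counting tool as a covariate, the first 3 were 0.0043, 0.0033 and -0.025. Without both female control 4 and male stress 1, chosen after the data were seen, the 6 values for single genes were 0.041, 0.27, -0.10, -0.062, 0.059 and -0.47. With no filter, the edgeR log2 fold change of Crh was -3.39 in females and -2.39 on average, neither called; such fitted values depend on the prior count and are no bound.

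Leaving out 1 library gave -0.026 to 0.055 for Nr3c1 with stress on average, -0.065 to 0.044 in females, -0.023 to 0.11 in males, -0.059 to 0.059 between control and -0.12 to 0.0049 between stressed sexes. For Nr3c2 the ranges were -0.13 to 0.083 for the difference of effects, -0.13 to 0.088 between control and -0.10 to 0.023 between stressed sexes. For Crhr1 they were -0.13 to 0.27 with stress in males and -0.46 to 0.29 between control sexes. The ratio ran from -0.29 to 0.0041 with stress in females, -0.23 to -0.018 in males, -0.14 to 0.15 between control and -0.066 to 0.025 between stressed sexes. The Crh difference ran from -0.113 to -0.0557 CPM in females, with exact permutation p up to 0.0571 when a stressed female was left out, and from -0.182 to -0.0880 CPM in males. The Crh average kept an unadjusted p of 0.0392 or less by the exact test, which was added after the values were seen. With all 16 libraries its adjusted p was 0.0714 by that test. Per M nuclear counts that average was -0.449 CPM, as library totals are then smaller.

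Over all genes, calls for stress on average, in females and in males were 48, 9 and 17, against 108, 27 and 31 by DESeq2, 207, 105 and 88 with no filter and 29, 14 and 5 in the HTSeq libraries. In males limma voom called 11 and the male libraries alone 27. With no filter 36 genes were called for the difference of effects against 0, and 54 and 105 for the sexes in controls and stressed rats against 16 and 13; HTSeq libraries gave 10 in controls. Without 1 library, calls on average ran from 28 to 56 and in males from 7 to 12. Counting alone gives a coefficient of variation of 21.9% for Crhr1 and 51.1% for Crh, against 45.5% and 109% measured over the 16 libraries.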
